A study of Homo sapiens with 1 sample.

Results

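The insulin-like growth factor (IGF) system was described through 10 genes, chosen by name: the binding proteins IGFBP1 to IGFBP7 and the receptors IGF1R, IGF2R and INSR. These are 10 of the 33538 genes in the count table. IGF1 and IGF2 are secreted growth factors that act mainly through IGF1R, a tyrosine kinase receptor closely related to the insulin receptor INSR, and both receptors pass the signal through IRS adaptors to the PI3K and AKT kinases. IGF2R, which has no kinase, takes IGF2 into the cell for degradation and also carries mannose 6-phosphate enzymes to lysosomes. Binding proteins hold IGFs outside the cell and either keep them from their receptor or bring them to it, and proteases such as PAPPA cut binding proteins and set the IGF free.

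The cells came from 1 single-cell RNA-seq library of the hESC line H9 (hESCs are human embryonic stem cells) with genotype WT, which carried the human form of HAR123, a human accelerated region in an intron of SMG6. They had been driven towards neural progenitor cells (NPCs) for 2 days as adherent cells in N2 medium with Dorsomorphin (1 μM), SB431542 (10 μM) and the Rock inhibitor (5 μM), for 5 days as rotating aggregates without the Rock inhibitor, and for 7 days replated on Matrigel in N2 and Gem21 without inhibitors. N2 contains insulin, so that a ligand of INSR was supplied throughout. Cells of independent clones were mixed before loading and were collected before any rosettes were picked, with a capture target of 20000 cells at 10000 per well. The other genotypes of the study were not analysed here, and with 1 library there is no replicate, no test and no p-value. The intervals below are 95% intervals that cover counting error only, and overlap of intervals is no test.

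Of 14726 barcodes, 13925 passed the filter of 2000 to 10000 detected genes and a mitochondrial share below 0.1, with a median of 17900 UMIs (unique molecular identifiers, each standing for 1 captured RNA molecule). No barcode was repeated, and all carried 1 suffix. Contractile cells, with 5 or more UMIs of ANXA1, TFPI2 and CTGF together per 10000, numbered 1584, which is 11.4% of the kept cells (10.9 to 11.9%). Newborn neuron-like cells, chosen by neuronal markers, numbered 135, and the remaining 12206 are called other cells. Median depth was 47217 UMIs in contractile, 13946 in newborn neuron-like and 16956.5 in other cells. All 7 contractile markers (TAGLN, ACTA2, MYL9, TPM1, TPM2, CNN1, CALD1) were at least 2-fold higher in contractile than in other cells, with a median ratio of 6.60. STMN2, a neuronal marker, stood at 1915 CPM (the UMIs of the gene over those of all genes in the class, scaled to 1000000) in newborn neuron-like cells and at 10.8 CPM in other cells. It is 1 of the markers that chose this class, so these values only describe the rule. Of the 12 neuronal markers, STMN2 and GAP43 were at least 2-fold higher in contractile than in other cells, and ELAVL4 and ELAVL3 lower. The 7 neural progenitor markers summed to 1860 CPM in other cells and to 5238 CPM in contractile cells, where VIM alone made up 4302 CPM. Of the 7, VIM and NES were at least 2-fold higher in contractile cells and SOX2, PAX6, SOX1 and MSI1 at least 2-fold lower. Of 9 marker lists of other lineages, 4 had a higher sum in contractile than in other cells. Epithelial markers summed to 677 against 165 CPM, mural markers to 144 against 82.2 CPM, endothelial markers to 19.6 against 17.0 CPM, and crest or mesenchyme markers to 87.5 against 19.2 CPM. In the last list COL1A2 alone gave 68.7 CPM, 1 of 8 genes was at 0 in contractile cells, and of the 6 with at least 100 UMIs 3 were at least 2-fold higher and TFAP2A was lower. Few genes carried the other sums too. KRT8 and KRT18 were at least 2-fold higher of 3 epithelial markers with at least 100 UMIs, and PDGFRB and RGS5 of 3 mural ones. Of 4 endothelial markers, CDH5 was at least 2-fold higher and CLDN5 lower, and 1 gene gave 16.7 of the 19.6 CPM. The sums of the pluripotent, endoderm, mesoderm, retinal pigment epithelium and choroid plexus lists were lower in contractile cells, although single members such as MITF, GATA4 and CLIC6 were at least 2-fold higher there. Their part in the values below was not tested.

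The members lie on 8 chromosomes in GRCh38 (GENCODE version 44), and 4 of them form neighbouring pairs. IGFBP2 (chr2:216632828-216664436, plus strand) and IGFBP5 (chr2:216672105-216695549, minus strand) end 7668 bases from each other. IGFBP1 (chr7:45888360-45893660, plus strand) and IGFBP3 (chr7:45912245-45921874, minus strand) end 18584 bases from each other. The receptors are long genes that are mostly intron. IGF1R (chr15:98648539-98964530, plus strand) spans 316 kb with 4.41% of its bases in exons, and INSR (chr19:7112255-7294414, minus strand) spans 182 kb with 5.95% in exons. IGF2R (chr6:159969082-160113507, plus strand) spans 144 kb. IGFBP7 (chr4:57030773-57110385, minus strand) is the longest binding-protein gene at 79.6 kb, while IGFBP4 (chr17:40443450-40457725, plus strand) and IGFBP6 (chr12:53097436-53102345, plus strand) are compact. The counting software takes in intronic reads by default in the version used, so levels are compared between cells for 1 gene at a time and not between genes.

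RefSeq promoter windows (GRCh38.p14, 250 bases before to 50 after the start site) were found for 8 of the 10 members. None was at hand for IGFBP1 or for IGFBP7, the member with the largest contractile ratio, so the motif search does not cover them. Those printed below were picked from the 8 by their results: IGFBP3, which was higher in contractile cells, IGFBP5, which was lower by CPM there (but not by UMIs per cell, with a ratio of 1.18) and in S and G2/M than in G1, and INSR, whose level followed S phase. Capitals mark matches on either strand to 4 short motifs picked after the values were seen. TEAD factors bind a core read here as CATTCC. The core searched for the AP-1 family was TGANTCA. The core searched for the E2F family was TTTNGCGC. A TATA box was read as TATANA.
IGFBP3, chr7:45921223-45921522, minus strand: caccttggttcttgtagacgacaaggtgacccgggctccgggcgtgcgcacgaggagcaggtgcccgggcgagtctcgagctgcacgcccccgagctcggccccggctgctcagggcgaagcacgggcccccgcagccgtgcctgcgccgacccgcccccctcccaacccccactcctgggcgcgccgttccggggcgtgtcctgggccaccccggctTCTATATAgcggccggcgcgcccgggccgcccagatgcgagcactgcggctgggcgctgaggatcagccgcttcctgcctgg
IGFBP5, chr2:216695500-216695799, minus strand: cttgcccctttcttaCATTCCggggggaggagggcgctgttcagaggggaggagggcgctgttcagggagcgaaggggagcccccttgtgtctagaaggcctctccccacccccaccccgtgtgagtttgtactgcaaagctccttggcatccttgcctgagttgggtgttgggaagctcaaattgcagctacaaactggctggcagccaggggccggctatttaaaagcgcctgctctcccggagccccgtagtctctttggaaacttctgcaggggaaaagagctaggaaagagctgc
INSR, chr19:7294365-7294664, minus strand: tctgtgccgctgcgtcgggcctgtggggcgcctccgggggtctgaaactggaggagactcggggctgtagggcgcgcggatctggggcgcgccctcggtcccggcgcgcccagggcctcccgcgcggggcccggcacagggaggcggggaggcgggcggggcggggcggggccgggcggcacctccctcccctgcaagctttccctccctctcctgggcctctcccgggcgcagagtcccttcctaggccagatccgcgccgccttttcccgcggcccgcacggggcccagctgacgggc
IGFBP3 held overlapping TATANA matches at -32 and -30 from the start site, and IGFBP4, not printed, held one at -29. Over 35116 RefSeq promoters, 19.0% held TATANA. IGFBP5 held CATTCC at -235 and IGFBP6 held it at -101, against 14.0% of all promoters. IGF1R held TTTNGCGC at -119, against 1.79% of all promoters, and no member window held TGANTCA, found in 7.71% of all. No match of the 4 motifs was found in the INSR window, whose base composition was 78.3% G and C with 36 CpG, against a median over all promoters of 58.7% and 14 CpG. A match is only a string of letters in the window.

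The first comparison asked how the binding proteins and receptors differ between contractile and other cells. IGFBP7 and IGFBP3 were far higher in contractile cells, IGFBP6 was higher by a ratio near 2 that rests on few UMIs, and IGFBP5 was the only member at least 2-fold lower by CPM. IGF1R was moderately higher and INSR lower by CPM, and by UMIs per cell their ratios were above 1, at 1.18 for IGFBP5 and 1.49 for INSR, but still under the 1.94 of the median gene on that scale. Of the 9 members with at least 100 UMIs, 3 were at least 2-fold higher and 1 was at least 2-fold lower, where 7.51% of the 18696 genes with at least 100 UMIs were at least 2-fold higher and 23.8% at least 2-fold lower. A scaling matter runs through this comparison: the median gene had a CPM ratio of 0.773, while a contractile cell held 2.51 times the UMIs of an other cell. Ratios over the median gene are therefore given beside the CPM ratios of the members. Cell cycle phase, called as described below, was not matched. Of the 1584 contractile cells 360 were called G1 and 736 G2/M, against 3053 and 3962 of the 12206 other cells. The pooled ratios therefore mix class with phase, and the part of phase was not tested. Divided by the median gene, 4 members were at least 2-fold higher (IGFBP3, IGFBP6, IGFBP7 and IGF1R, where 11.3% of all genes were) and 0 lower (14.5%). By UMIs per cell, 7 of 9 were at least 2-fold higher and 0 lower, where 47.6% of all genes were higher and 4.1% lower.

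**Figure D1:**
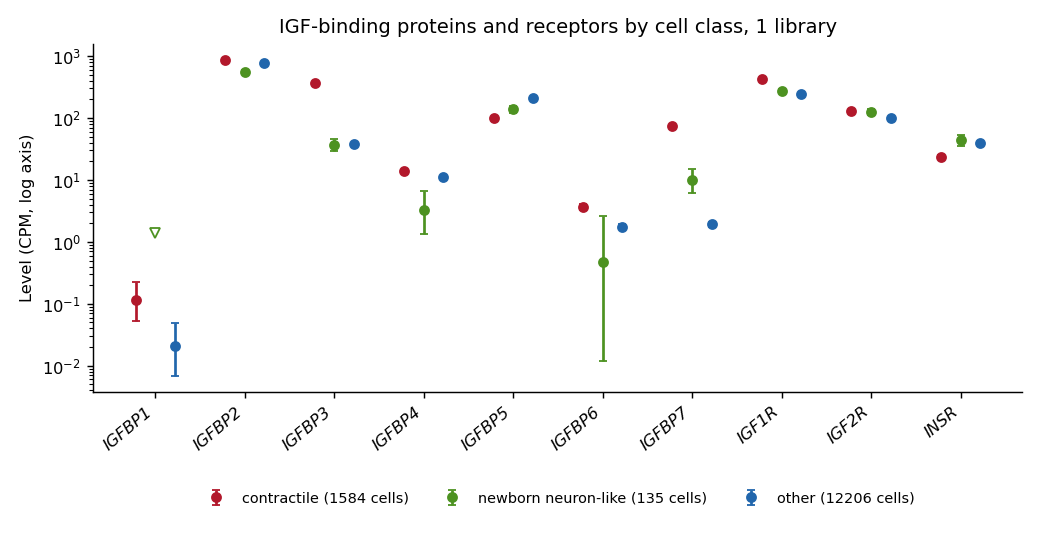
Level of each member in CPM (log axis) in contractile, newborn neuron-like and other cells of the 1 library, as points with exact 95% Poisson intervals; an open triangle marks the limit that a count of 0 allows. IGFBP7 stands at 74.4 CPM in contractile and 1.92 CPM in other cells, and IGFBP3 at 363 and 37.9 CPM.

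IGFBP7, a low-affinity IGF binder secreted into the matrix, had 5710 of its 6184 UMIs in contractile cells. Its level was 74.4 CPM in contractile cells (72.5 to 76.4) and 1.92 CPM in other cells (1.75 to 2.11). The ratio was 38.7 (35.2 to 42.7), or 50.1 over the median gene, which lies at the 99.7th percentile of all genes' ratios. At the single-cell level the gene was patchy. The number of UMIs per contractile cell ran from 0 to 106 with a median of 0, and 42.9% of contractile cells had at least 1 UMI against 2.84% of other cells. After each cell was thinned to 5000 UMIs the shares were 18.5% and 0.903%.

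IGFBP3, the main carrier of IGFs in blood and a secreted growth inhibitor in many tissues, had a level of 363 CPM in contractile cells (358 to 367) and of 37.9 CPM in other cells (37.1 to 38.7). The ratio was 9.56 (9.34 to 9.80), or 12.4 over the median gene. The gap varied with phase. Contractile and other cells stood at 348 and 60.3 CPM in G1, 311 and 41.9 CPM in S, and 394 and 23.2 CPM in G2/M. Contractile cells held from 0 to 387 UMIs with a median of 7, other cells from 0 to 46 with a median of 0. The thinned share of cells with a UMI was 53.6% in contractile and 14.5% in other cells. After thinning, 12.03% of newborn neuron-like cells also had a UMI, near the share of other cells.

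IGFBP6, a binder with a preference for IGF2, had 701 UMIs in all. It stood at 3.69 CPM in contractile cells (3.27 to 4.14) and 1.77 CPM in other cells (1.60 to 1.95), with a ratio of 2.09 (1.79 to 2.43), or 2.70 over the median gene. Only 8.21% of contractile cells had a UMI. The ratio was 1.97 without the 1 contractile cell that held 16 IGFBP6 UMIs, 1.90 by the mean of per-cell CPM and 1.48 at a contractile threshold of 10, so that the 2-fold call was lost in each. Among other cells, 1 cell held 18 IGFBP6 UMIs. With the top cell of each class left out, the levels were 3.48 and 1.69 CPM, still at least 2-fold apart. IGFBP1, the liver and decidua binding protein, had 14 UMIs in all kept cells, 9 in contractile and 5 in other cells, and is under the minimum for a ratio.

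IGFBP5, a binding protein of matrix and developing neural tissue, went the other way by CPM. Its level was 99.1 CPM in contractile cells (96.8 to 101) and 211 CPM in other cells (209 to 213), a ratio of 0.470 (0.458 to 0.481), or 0.607 over the median gene, but by UMIs per cell the direction turned to a ratio of 1.18. By phase, IGFBP5 was at 174 and 331 CPM in G1, which is short of 2-fold. It was at 72.9 and 190 CPM in S, and at 85.0 and 176 CPM in G2/M. Most other cells had it (83.7%, median 3 UMIs), while contractile cells were uneven, with a median of 1 UMI and a highest value of 185. IGFBP2, the binding protein of fetal brain, was at 865 CPM in contractile and 775 CPM in other cells, a ratio of 1.12 (1.11 to 1.13), or 1.44 over the median gene. IGFBP4, a soluble inhibitor of IGF action and the classic substrate of PAPPA, was at 13.9 and 11.2 CPM, a ratio of 1.24 (1.15 to 1.33), or 1.60 over the median gene.

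Among the receptors, IGF1R was at 428 CPM in contractile cells (424 to 433) and 242 CPM in other cells (240 to 244). The ratio was 1.77 (1.75 to 1.79), or 2.29 over the median gene, and the median cell held 16 UMIs against 4. IGF2R was at 128 and 101 CPM, a ratio of 1.27 (1.24 to 1.30), or 1.64 over the median gene. INSR was at 23.9 CPM in contractile cells (22.8 to 25.0) and 40.2 CPM in other cells (39.4 to 41.0), a ratio of 0.594 (0.565 to 0.625), or 0.769 over the median gene, but of 1.49 by UMIs per cell. The receptors for IGF1 and for insulin thus differed in opposite directions by CPM in this library. By UMIs per cell, where both ratios were above 1, IGF1R (4.44) lay above and INSR (1.49) below the median gene.

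**Figure D2:**
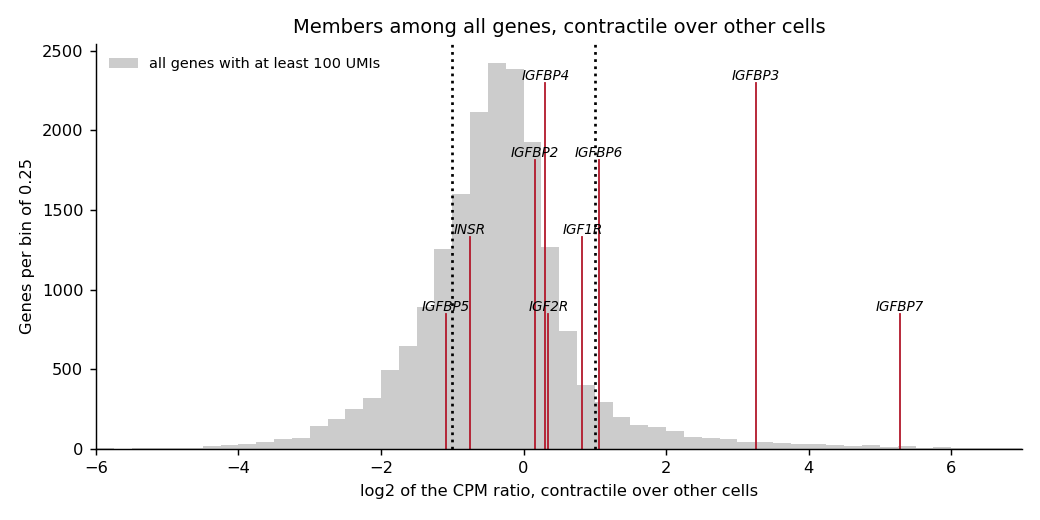
Number of genes (vertical axis, bins of 0.25) by the log2 of the CPM ratio of contractile over other cells (horizontal axis), for all genes with at least 100 UMIs, with the 9 members that reach this minimum as red lines of arbitrary height and dotted lines at 2-fold. IGFBP7 and IGFBP3 lie in the right tail and IGFBP5 (CPM ratio 0.470) and INSR (0.594) lie left of 0 on this scale, although by UMIs per cell their ratios are 1.18 and 1.49.

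Since contractile cells were deeper, the comparison was repeated among cells of like depth, a choice made after the data were seen. With 15000 to 25000 UMIs there were 114 contractile and 5396 other cells, with 25000 to 35000 there were 218 and 1548, and with 35000 to 50000 there were 441 and 590. Across these windows the IGFBP3 ratio was 7.42, 9.78 and 8.74. The IGFBP7 ratio was 16.2, 16.3 and 27.3, below the value over all cells. IGFBP5 was at 0.730, 0.477 and 0.686, so that it passed 2-fold only in the middle window. IGFBP6 was at 1.27 (0.408 to 3.03), 1.78 (0.884 to 3.32) and 2.79 (1.67 to 4.78), and passed 2-fold only in the deepest window. IGF1R stood at 1.24, 1.35 and 1.27, and INSR at 0.564, 0.788 and 0.716. IGFBP2 was at 1.58, 1.39 and 1.23. IGFBP4, with a ratio of 1.24 over all cells, turned to 0.826 (0.516 to 1.26) and 0.826 (0.632 to 1.06) in the shallower windows and was 1.16 (0.972 to 1.38) in the deepest.

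The levels were next followed along the contractile score itself, to see whether they step at the threshold or change by degrees. The score chose the classes, so these values are a description. From cells with none of the 3 score genes (7803 cells) to those at 30 or more per 10000 (348 cells), IGFBP3 went from 34.6 to 589 CPM and IGFBP7 from 1.50 to 108 CPM. IGFBP3 was already at 75.1 CPM in cells scoring 2 to 3 and at 102 CPM in those scoring 3 to 4, all of which count as other cells. At the threshold, the 89 cells scoring 4 to 5 and the 72 cells scoring 5 to 6 had IGFBP3 at 127 and 94.3 CPM, IGFBP7 at 7.21 and 29.1 CPM, IGFBP5 at 102 and 71.5 CPM, IGF1R at 302 and 370 CPM, and INSR at 38.1 and 23.6 CPM. Single cells weighed on the bin at 5 to 6: without the cell with most of each, IGFBP7 was 10.4 CPM there in place of 29.1 CPM, IGFBP6 6.42 in place of 12.6 CPM and IGFBP4 16.7 in place of 24.0 CPM. Past this bin, IGFBP6 was lower in each next bin, at 5.83, 4.59, 2.45 and 1.71 CPM, the last close to the 1.61 CPM of cells without the score genes. IGFBP4 went from 16.4 CPM at 6 to 10 to 10.2 CPM at 30 or more. IGFBP5 was at 234 CPM without the score genes and at 82.4 CPM already at 3 to 4, then between 71.5 and 128 CPM. INSR was at 41.4 CPM without the score genes and 18.3 CPM at 30 or more, with uneven values between, while the progenitor gene SOX2 was lower in every next bin, from 443 to 81.5 CPM.

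**Figure D3:**
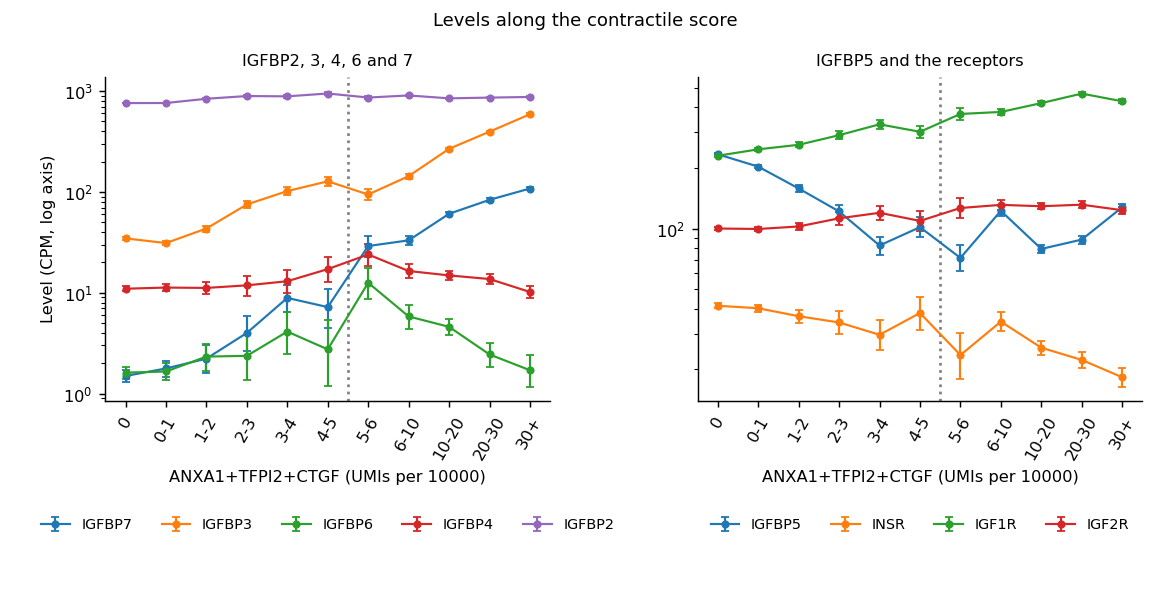
Level in CPM (log axis) of 9 members in 11 bins of the contractile score, the UMIs of ANXA1, TFPI2 and CTGF per 10000, with exact 95% Poisson intervals; the dotted line marks the class threshold of 5. IGFBP3 and IGFBP7 are highest in the last bin (589 and 108 CPM), the IGFBP6 and IGFBP4 points at 5 to 6 (12.6 and 24.0 CPM) are 6.42 and 16.7 CPM without 1 cell each, and INSR is lowest in the last bin (18.3 CPM).

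Within the contractile class IGFBP3, IGFBP5 and IGFBP7 were spread unevenly over cells. After thinning to 5000 UMIs, the variance of IGFBP3 over 1581 contractile cells was 4.32 times its mean, that of IGFBP5 3.67 times and that of IGFBP7 2.53 times, where independent sampling of a constant level gives a value near 1. IGF2R and INSR were near that value, at 1.10 and 1.08. The contractile cell with the most IGFBP3 UMIs (387), at 106335 UMIs in all, also held 185 IGFBP5 UMIs. That was the highest IGFBP5 count, shared with a contractile cell of 74742 UMIs. The correlation of IGFBP3 with IGFBP7 over the 1581 cells was -0.021 (Pearson r of log-normalized thinned counts), and the largest between members was that of IGFBP5 with IGFBP7, at 0.149. All cells share 1 library, and thinned counts are sparse, so these values are descriptive.

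The genes most like IGFBP3 among contractile cells were CALD1 (r = 0.446), NPPB (0.433) and TAGLN (0.389), of which CALD1 and TAGLN are actin-binding proteins of contractile cells and NPPB is a natriuretic peptide. Those most like IGFBP7 were COL8A1 (0.283), VIM (0.269) and SPP1 (0.267), a collagen, an intermediate filament and a matrix protein. IGFBP5 went with COL1A1 (0.211), another collagen, and IGFBP4 with WLS (0.155), which exports Wnt ligands. Because WLS led for IGFBP4, the class was divided by a WLS UMI after thinning, again after the data were seen, so that the IGFBP4 values restate the correlation. The 217 contractile cells with one had IGFBP4 at 26.0 CPM against 11.6 CPM in the 1364 without, IGFBP5 at 213 against 77.8 CPM, IGFBP6 at 9.04 against 2.66 CPM and IGFBP7 at 123 against 65.3 CPM. IGFBP3 was lower in them, at 256 against 383 CPM, while INSR was alike at 24.2 (21.5 to 27.2) and 23.9 CPM (22.7 to 25.1). IGF1R was higher in them, at 610 against 394 CPM, and IGF2R was at 140 against 126 CPM. Median depth was 54142 UMIs with and 45950 without a WLS UMI, and its part in these values was not tested.

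Newborn neuron-like cells, the smallest class, had less IGFBP2, IGFBP4 and IGFBP5 than other cells, and their receptor levels stayed near those of other cells of all phases. Phase was not matched: 111 of the 135 cells were called G1, against 3053 of the 12206 other cells. Other cells in G1 had IGFBP2 at 884, IGFBP4 at 8.92, IGFBP5 at 331 and INSR at 30.4 CPM. The ratios below therefore mix class with phase, and the part of phase was not tested. By CPM, 1 of the 9 members was at least 2-fold higher (10.6% of all genes) and 2 at least 2-fold lower (14.9%). IGFBP4 was the better measured of those lower, with 7 UMIs and 3.27 CPM (1.32 to 6.75) against 11.2 CPM. IGFBP6 had 1 UMI, and its ratio of 0.264 has an interval from 0.00668 to 1.48. The member called higher was IGFBP7, at 9.82 CPM, but 19 of its 21 UMIs lay in 1 cell of 65942 UMIs with 128 TAGLN UMIs, 0 STMN2 UMIs and a contractile score of 3.64. Without that cell the ratio was 0.502 in place of 5.11. It then rested on 2 UMIs, at 0.965 CPM (0.117 to 3.49), an interval that holds the 1.92 CPM of other cells.

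IGFBP2 was at 555 CPM in newborn neuron-like cells (524 to 587), a ratio of 0.716 (0.675 to 0.758) to other cells, and IGFBP5 at 138 CPM (122 to 154), a ratio of 0.652 (0.579 to 0.731). IGFBP3 was at 36.9 CPM (29.3 to 46.1), with a ratio of 0.974 (0.771 to 1.22), but 22 of its 79 UMIs lay in the same deep cell, and without that cell it was 27.5 CPM (20.8 to 35.6), below the 37.9 CPM of other cells. IGF1R had 275 CPM, and its ratio of 1.14 by CPM was 0.931 by UMIs per cell. IGF2R had 126 CPM and a ratio of 1.25 (1.11 to 1.41), and INSR had 43.5 CPM and a ratio of 1.08 (0.872 to 1.33) that was 0.887 by UMIs per cell.

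The class is mixed, and the low binding proteins belonged to its clearest cells. The 99 cells with a neuron score of 10 or more had IGFBP2 at 445 CPM, IGFBP5 at 67.6 CPM and IGFBP3 at 18.7 CPM. The 36 cells scoring 5 to 10 had these at 810, 300 and 79.2 CPM (856, 332 and 50.1 CPM without the deep cell), with STMN2 at 262 CPM against 2628 CPM in the clearer cells. INSR ran the other way, at 50.9 CPM (40.1 to 63.7) in the clearer cells and 26.4 CPM (15.4 to 42.2) in the rest, and IGF2R was alike at 127 and 126 CPM. The neuron score chose these cells, so the STMN2 values only describe it.

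Levels in the 99 clearer neuron-like cells can also be set against those of contractile cells. IGFBP7 stood there at 1.80% of its contractile level (0.218 to 6.50%), on 2 UMIs, and IGFBP3 at 5.17% (3.43 to 7.47%), beside TAGLN at 1.25% (1.00 to 1.55%). In other cells, IGFBP7 was at 2.58% (2.34 to 2.84%), IGFBP3 at 10.5% (10.2 to 10.7%) and TAGLN at 9.69%. After thinning, 1 of 133 newborn neuron-like cells had an IGFBP7 UMI, the deep cell with 19 of them. The part of free RNA in the IGFBP7 and IGFBP3 of other cells was not tested.

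The last comparison followed the members through the cell cycle. Phase calls from S and G2/M gene lists gave 3053 G1, 5191 S and 3962 G2/M cells among other cells, with median depths of 13486, 16820 and 21787 UMIs. INSR was highest in S phase, IGFBP5 highest in G1, and IGFBP3 lowest in G2/M, while IGF1R was nearly level by CPM. No member passed 2-fold by CPM from G1 to S, in either direction (0 of 9, where 5.29% of all genes were at least 2-fold higher and 2.05% lower). From G1 to G2/M, 0 of 9 were at least 2-fold higher (4.23% of all genes) and 2 at least 2-fold lower (3.74%), IGFBP3 and IGFBP6. These are counts past a fold and not of a test. The median gene ratio was 0.956 and 0.976, so that CPM was hardly shifted, but cells in S and G2/M held more UMIs, 1.27 and 1.62 times those in G1.

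INSR was at 30.4 CPM in G1 (28.8 to 32.1), 56.2 CPM in S (54.7 to 57.7) and 28.5 CPM in G2/M (27.5 to 29.6). The S to G1 ratio was 1.85 (1.74 to 1.96), at the 93.7th percentile of all genes, and 2.34 by UMIs per cell. From G1 to G2/M the CPM ratio of INSR was 0.937, which turned to 1.52 for UMIs per cell. In contractile cells S was highest too, with 20.4, 34.3 and 19.9 CPM. The S to G1 ratio there was 1.68 (1.47 to 1.93), and 2.03 (1.29 to 3.28) when thinned. The G2/M to G1 ratio there of 0.977 (0.855 to 1.12) turned to 1.38 when thinned and 1.32 by UMIs per cell. With cells ordered around the cycle in 12 bins, INSR went from 27.0 CPM in the first bin to 66.0 CPM in the seventh, which was also the bin with the most PCNA (247 CPM), a replication clamp, and back to 23.9 CPM in the last. CCNB1, the mitotic cyclin, was highest in the eleventh bin at 424 CPM. The genes most like INSR over 12183 other cells were ATAD2 (r = 0.090), DTL (0.089) and POLA1 (0.079), of which DTL and POLA1 act in DNA replication. PCNA, ATAD2, DTL and POLA1 are on the S gene list that set the phases and bin order, so they are no independent markers. At this sparsity correlations of this size are no finding by themselves.

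IGFBP5 was at 331 CPM in G1 (325 to 336), 190 CPM in S (187 to 192) and 176 CPM in G2/M (173 to 179), ratios to G1 of 0.574 and 0.532. In the ordered bins it was 343 CPM at the start of the cycle, 137 CPM in the ninth bin and 257 CPM in the last, higher again than in the bins before it. In contractile cells the ratios were 0.419 for S and 0.488 for G2/M. By UMIs per cell the direction in other cells was the same, at 0.727 and 0.863. IGFBP7 in contractile cells had a like pattern at 136 CPM in G1 (130 to 142), 49.0 CPM in S and 65.1 CPM in G2/M. IGFBP5 and IGFBP7 were the members at least 2-fold lower than in G1 among contractile cells, 2 of 9 in S (6.02% of all genes) and 2 of 9 in G2/M (6.91%), with 0 of 9 at least 2-fold higher in S (7.12%) or in G2/M (5.2%). The G2/M calls were narrowly made, since the thinned ratios were 0.503 for IGFBP5 and 0.550 for IGFBP7, and those by UMIs per cell 0.659 and 0.647. When thinned, INSR passed 2-fold higher in S, at 2.03.

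**Figure D4:**
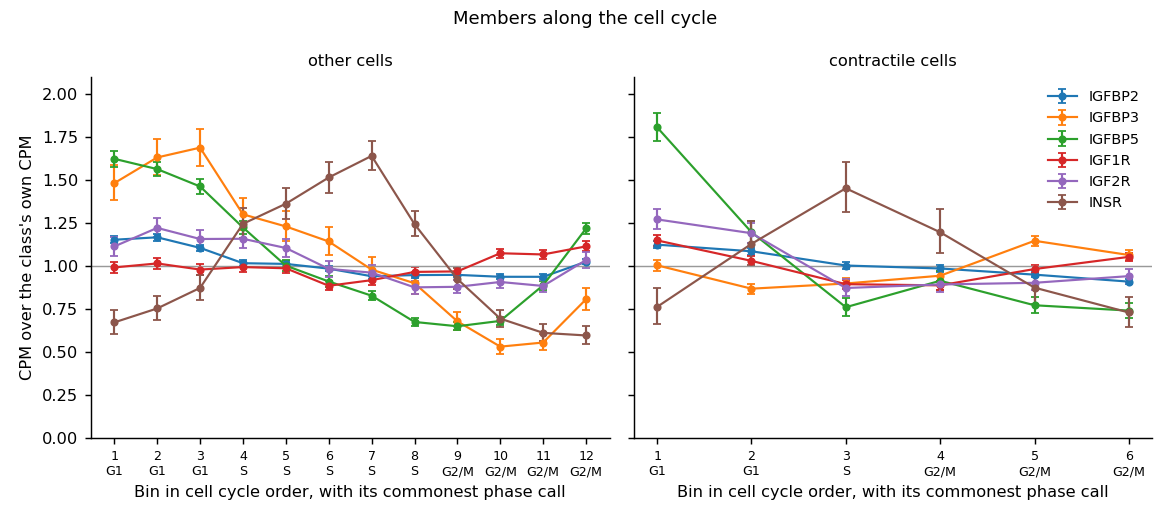
Level of 6 members over their level in the whole class (vertical axis, ratio of CPM) in bins of equal cell number ordered around the cell cycle (horizontal axis, with the commonest phase call), for other cells in 12 bins and contractile cells in 6 bins, with exact 95% Poisson intervals. INSR peaks in the S bins of both classes (66.0 CPM in other cells), IGFBP5 is highest in the first G1 bin (343 CPM), and IGFBP3 is low in the G2/M bins of other cells (20.1 CPM in the tenth bin) but not of contractile cells (416 CPM in the fifth bin).

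IGFBP3 was at 60.3 CPM in G1, 41.9 CPM in S and 23.2 CPM in G2/M among other cells, a G2/M to G1 ratio of 0.384 (0.363 to 0.406) at the 1.12th percentile of all genes, and of 0.622 by UMIs per cell. In contractile cells it was at 348, 311 and 394 CPM, a ratio of 1.13 (1.10 to 1.17). The difference between the classes was not tested. The genes with the lowest correlation to IGFBP3 in other cells were CENPF (-0.129), TOP2A (-0.127) and HMGB2 (-0.126), all of the G2 and M phases. These genes are also on the G2/M list that called the phases, so the correlations restate the phase difference. IGFBP6 was at 2.81 CPM in G1 and 1.23 CPM in G2/M (ratio 0.437, 0.337 to 0.567), but its thinned ratio was 0.613 (0.370 to 1.01).

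The others differed less by CPM. IGFBP2 was at 884, 759 and 740 CPM in G1, S and G2/M of other cells, ratios of 0.858 and 0.837 that were 1.09 and 1.36 by UMIs per cell. IGF2R was at 119, 101 and 92.4 CPM, ratios of 0.847 and 0.776 that were 1.07 and 1.26 by UMIs per cell. IGF1R was at 243, 230 and 254 CPM, ratios of 0.946 and 1.05 that were 1.20 and 1.70 by UMIs per cell. IGFBP4 was at 8.92, 10.00 and 13.5 CPM, and its G2/M to G1 ratio was 1.52 (1.35 to 1.70), or 2.46 by UMIs per cell, against 1.00 (0.856 to 1.18) by CPM in contractile cells. In contractile cells IGF2R was at 170, 117 and 119 CPM and IGF1R at 489, 373 and 434 CPM.

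Among other cells, the genes most like IGFBP5 were SMOC1 (r = 0.219), PTN (0.196) and SEMA6A (0.191), of which SMOC1 and PTN are secreted and SEMA6A is a guidance molecule. After thinning, the 823 cells with a UMI of EPHA3, an ephrin receptor, had IGFBP5 at 125 CPM against 238 CPM in the rest, and IGFBP2 at 579 against 801 CPM. The pair IGFBP2 and IGFBP5, neighbours on chromosome 2, had the highest correlation of any 2 members in other cells (0.158). In contractile cells it was 0.124, under the 0.149 of IGFBP5 with IGFBP7, and the part of gene position was not tested. The genes most like IGFBP2 were DLK1 (0.233), an imprinted Notch-like ligand, and the mitochondrial transcripts MT-ATP6 (0.223) and MT-CO2 (0.217).

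IGFBP2 went with the mitochondrial share of UMIs, which is also used as a sign of cell quality. In other cells it was 568 CPM at a share of 1 to 3%, 689 CPM at 3 to 5%, 842 CPM at 5 to 7% and 983 CPM at 7 to 10%, with median depths between 14018 and 18884.5 UMIs. IGFBP5 was at 158, 197, 225 and 239 CPM over the same bins, while IGF1R stayed between 232 and 251 CPM. Cells under 1%, 189 in all, stood apart: the 101 among other cells had IGF1R at 99.8 CPM and INSR at 10.6 CPM, and the 87 contractile ones had IGF1R at 79.1 CPM, INSR at 4.34 CPM and IGFBP3 at 69.4 CPM. Their median depth was about that of shallow cells, 9508 and 9552 UMIs. The part of cell quality in these values was not tested.

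The other genes of the pathway were read from lists of ligands, binding-protein relatives, proteases, adaptors and the PI3K arm, chosen with earlier results of these data known. Ligand transcripts were scarce. IGF1 had 303 UMIs, at 2.36 CPM in contractile and 0.517 CPM in other cells, a ratio of 4.56 (3.60 to 5.79). IGF2 had 33 UMIs in contractile and 3 in other cells, under the minimum for a ratio. INS had 0 UMIs, and 3 counts, the limit used for a count of 0, would be 0.00953 CPM over the kept cells.

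The proteases of binding proteins and their inhibitors were the list with the most members higher in contractile cells, 10 of 12 at least 2-fold (7.51% of all genes) and 1 lower (23.8%), with a median ratio of 5.18 against 0.773 over all genes. PAPPA, which cuts IGFBP4 and IGFBP5, was at 185 CPM against 41.5 CPM in other cells (ratio 4.46), and PAPPA2, which cuts IGFBP3 and IGFBP5, at 15.5 against 2.63 CPM (5.90). Their inhibitors STC1 and STC2 were higher as well, STC1 at 37.4 against 5.90 CPM (6.34) and STC2 at 52.6 against 2.28 CPM (23.1). PAPPA, PAPPA2 and their inhibitors were thus higher in the same class as IGFBP3 and IGFBP7. In newborn neuron-like cells 2 of the 12 were at least 2-fold higher, against 10.6% of all genes, led by ADAM12 at 88.9 against 9.28 CPM.

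Of the binding-protein relatives, 7 of 12 had at least 100 UMIs. CTGF is part of the class rule and is left out here. Of the other 6, 2 were at least 2-fold higher in contractile cells (7.51% of all genes) and 1 lower (23.8%), with a median ratio of 0.896. CYR61, a CCN protein with an IGFBP-type domain, was at 372 against 47.0 CPM (7.90) and CRIM1, a membrane protein with such a domain, at 664 against 53.0 CPM (12.5). HTRA1, a secreted protease, was lower at 6.92 against 17.4 CPM (0.398; 0.997 by UMIs per cell). In newborn neuron-like cells 2 of the same 6 were at least 2-fold higher (10.6% of all genes) and 3 lower (14.9%), KAZALD1, CYR61 and HTRA1. Those higher were IGFBPL1, with 66.9 CPM against 4.16 CPM in other cells, a ratio of 16.1 (13.4 to 19.2), and NOV, which had only 2 UMIs there and a ratio of 2.42 (0.289 to 9.01).

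At the receptor, 4 of 15 adaptors and regulators were at least 2-fold higher in contractile cells and 1 lower, with a median ratio of 1.07, against the same 7.51% and 23.8% of all genes. IRS1 stood at 110 against 24.3 CPM (4.51) and IRS2 at 120 against 38.6 CPM (3.11), while IRS4 was at 1.23 against 7.44 CPM (0.165; 0.413 by UMIs per cell). SHC1, an adaptor to the RAS pathway, was at 97.4 against 21.8 CPM (4.46), and CAV1, the caveolae protein, at 248 against 4.88 CPM (50.9). In the PI3K, AKT, mTOR and FOXO arm, 4 of 30 were at least 2-fold higher and 3 lower, with a median ratio of 0.945, where 7.51% of all genes were higher and 23.8% lower. FOXO1, a transcription factor that AKT inactivates, was at 75.7 against 35.9 CPM (2.11), and PIK3R3, a regulatory subunit of PI3K, at 19.8 against 74.2 CPM (0.267; 0.669 by UMIs per cell). From G1 to S in other cells, 1 of the 15 adaptors and regulators was at least 2-fold higher (5.29% of all genes). This was ENPP1, an ectoenzyme that inhibits INSR, at 6.49 against 2.03 CPM (3.20), with a G2/M to G1 ratio of 2.58.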

How the data were processed

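RNA of 1 library of H9 cells was sequenced with a droplet 3' assay. The deposited file holds raw UMI counts per gene and barcode that the authors made with Cell Ranger 7.0.1 on GRCh38 (version from the submitters' processing notes; annotation not given in the sources used here). This version counts intronic reads by default, which adds to long genes such as the receptors. Normalization by the authors was not used. No group had a replicate, so no test was run.

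Barcodes with 2000 to 10000 detected genes and a mitochondrial share under 0.1 were kept (801 left out). Kept cells held 314660383 UMIs, from 3167 to 118188 per cell. Contractile cells had 5 or more UMIs of ANXA1, TFPI2 and CTGF per 10000. Newborn neuron-like cells were the remaining cells with 5 or more UMIs of the neuronal markers per 10000 and at least 3 of them detected; 11 of 12 markers were used, since SYT1 was left out after its values in progenitors were seen. Of the contractile cells, 69 also met the neuronal rule. Phases were scored with published S and G2/M gene lists.

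Counts were summed per class and divided by the class total (CPM). UMIs per cell, and counts thinned to 5000 UMIs per cell (28 shallower cells left out), were alternatives. Levels carry exact Poisson intervals, ratios exact conditional binomial intervals and shares Clopper-Pearson intervals, all at 95% and for counting error only. A gene was counted higher or lower from 2-fold, with at least 100 UMIs in kept cells. Pearson correlations used log-normalized thinned counts of genes with at least 1000 UMIs. Doublets were not removed in the reported values; in an alternative, the top 8% of Scrublet scores (1178 barcodes) were left out.

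All 10 members were named; of other genes, the 3 with the highest and 3 with the lowest correlation to a member could be named, along with listed pathway genes. Values of 1 listed gene are not reported here. The splits by WLS, EPHA3, NKX2-1, PAX3, EMX2, RAX and SIX6 and the motifs were chosen after values were seen. The members and lists were chosen with earlier results of these data known. Scripts were tested on simulated data. Tools were scanpy 1.11.5, matplotlib 3.10.9, scipy 1.17.1, numpy 2.4.6 and pandas 2.3.3 under Python 3.11.15.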

Additional observations from a re-analysis of the deposited data

Results flagged for a closer look

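The 801 barcodes that failed the quality filter entered no comparison, yet held signal of 9 members above the 0.231 CPM that a count of 3 gives there. IGFBP2 was at 761 CPM, IGFBP3 at 201 CPM, IGFBP4 at 14.5 CPM, IGFBP5 at 133 CPM, IGFBP6 at 6.55 CPM and IGFBP7 at 68.9 CPM. IGF1R was at 543 CPM, IGF2R at 138 CPM and INSR at 33.1 CPM. These pooled levels mostly describe the 94 barcodes over 10000 genes. Those held 9844060 of the 12980326 UMIs left out, and 823 of the 894 IGFBP7 UMIs. With a median of 103907 UMIs, they had IGFBP3 at 240 CPM, IGFBP7 at 83.6 CPM and IGF1R at 581 CPM, beside the class gene CTGF at 688 CPM. In the 520 barcodes under 2000 genes, IGFBP3 was at 57.2 CPM, IGFBP7 at 4.93 CPM and IGF1R at 377 CPM. The 430 barcodes with a mitochondrial share of 0.1 or more had these at 78.8, 25.0 and 442 CPM. The part of doublets or damaged cells in these values was not tested.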

How the results depend on the processing

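Of 324 recomputed member ratios, 303 kept their direction, and 11 of the 21 that turned did so by UMIs per cell. By UMIs per cell, 7 members in place of 3 were at least 2-fold higher in contractile cells (47.6% of all genes) and 0 in place of 1 lower, IGFBP5 turning to 1.18; divided by the median gene, 0 were lower. The IGFBP3 ratio ran from 8.48 to 24.0 over these alternatives, and was 7.42 in the shallowest depth window. IGFBP4 (1.24) was 0.826 in both shallower windows. The IGFBP6 call was lost at a contractile threshold of 10 (1.48), by the mean of per-cell CPM (1.90), in the window of 25000 to 35000 UMIs (1.78) and without 1 contractile cell (1.97). It was kept when the top cell of other cells was left out as well (3.48 against 1.69 CPM). In newborn neuron-like cells the count higher was 0 in place of 1, with IGFBP7 turning to 0.640 without the top Scrublet scores, 0.751 when thinned, 0.569 with a contractile threshold of 3, 0.671 with a neuronal threshold of 10 and 0.502 without the deepest cell, and also 0 by the mean of per-cell CPM. The thinned IGFBP7 ratio rests on 1 UMI there, with an interval of 0.0189 to 4.26. The count lower in this class was 0 at a neuronal threshold of 3 and 4 at 10. From G1 to S, 1 was higher by UMIs per cell (INSR) or with no minimum (IGFBP1), and 1 lower when thinned (IGFBP7). From G1 to G2/M, 1 was higher by UMIs per cell (IGFBP4) or with no minimum (IGFBP1), and the count lower was 0 by UMIs per cell and 1 when thinned (IGFBP3). The contractile share was 12.1% over all barcodes, 13.0% at a threshold of 3 and 9.06% at 10. The median-gene scaling, the depth window, and leaving out the cells under 1% mitochondrial share, the deepest newborn neuron-like cell or the contractile cell with most IGFBP6 (alone or with that of other cells) were chosen after seeing the data. No paired analysis was possible because there was 1 library. Depth limits IGFBP1 everywhere and IGFBP4, IGFBP6 and IGFBP7 in the newborn neuron-like class. Clones and loading wells could not be separated.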

Other observations

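Within the PI3K arm, newborn neuron-like cells had 3 of 30 genes at least 2-fold higher than other cells (PIK3R1, TRIB3 and SESN3) and FOXO1 lower, with a ratio of 0.248, counts at or under the shares of all genes (10.6% higher and 14.9% lower). Through the cycle of other cells, DDIT4, an inhibitor of mTORC1, was lower in S and G2/M than in G1, with ratios of 0.360 and 0.323. In the 73 other cells with a UMI of NKX2-1, a ventral forebrain and hypothalamic factor, IGFBP3 was higher than in those without, with a ratio of 1.99 (1.32 to 2.89) after thinning, on 28 UMIs. In the 122 cells with a PAX3 UMI, a dorsal and neural crest factor, the ratio was 0.548 (0.292 to 0.939), on 13 UMIs. The IGFBP3 ratio was 0.986 (0.898 to 1.08) for EMX2, on 604 UMIs. It was 0.952 (0.693 to 1.28) for RAX and 1.16 (0.816 to 1.61) for SIX6. No pattern by region is read from these splits. These are descriptions of 1 library.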
